A study of Homo sapiens with 2 samples.

Results

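The chromatin around 10 genes of airway and alveolar secretion was examined in B2B cells: MUC1, MUC4, MUC5AC, MUC5B, SCGB1A1, SCGB3A1, BPIFA1, SFTPB, SFTPC and SFTPD. They were taken from a named list, out of 20007 protein-coding genes in the annotation (GENCODE 44, hg38), and the rule that chose them used no measured value. Earlier results of these data were known, however, when these genes and the gene lists used below were chosen. For each gene, ATAC-seq peaks were read over its span, from 50 kb upstream of the gene to 50 kb downstream of it. B2B (BEAS-2B) is an immortalized cell line from human bronchial epithelium, and the cells here were wild type and untreated. There were 2 replicate libraries and no other condition, and values are described without a test. ATAC-seq marks open chromatin, because the Tn5 transposase inserts sequencing adapters where DNA is not packed in nucleosomes, and a peak is a stretch with more fragments than the local background.

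Mucins are large glycoproteins. MUC5AC and MUC5B are secreted and form the gel of airway mucus, whereas MUC1 and MUC4 are anchored in the membrane of the cell surface. SCGB1A1 is the secretoglobin that marks club cells, SCGB3A1 is a secretoglobin of the larger airways, and BPIFA1 is a secreted antimicrobial and surface-active protein. SFTPB and SFTPC are the hydrophobic surfactant proteins that lower surface tension in the alveolus, and SFTPD is a collectin that binds microbes. Several of these genes are used as markers of differentiated goblet, club or alveolar type II cells. Their transcription in the lung involves factors such as NKX2-1, the FOXA family and SPDEF.

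The lists held 28735 peaks in replicate 1 and 36162 in replicate 2 on the chromosomes used. The median peak had 35 and 30 fragments at its summit, against a background of 4.77 and 3.41 fragments, and the weakest had 16 and 13, so openness below that level would not appear in either list. Of the peaks, 92.3% of replicate 1 and 72.1% of replicate 2 had a partner in the other list. Fold enrichment below is the fragments at the summit over the local background, each with 1 added, and a region is a merge of overlapping peaks, called shared where each replicate had a peak in it. As a check of the label, 1 of 7 epithelial marker genes had a promoter peak (defined below) in both replicates. This was KRT18, while KRT8 had one in replicate 2 only, and CDH1, EPCAM, KRT5, KRT14 and KRT19 had none. Among the mesenchymal markers it was 7 of 8, namely VIM, COL1A1, FN1, CDH2, ZEB1, SNAI2 and TWIST1, and COL1A2 had none. From the CpG content of their promoters, in the way described below, the sums were 3.55 genes for the epithelial list and 4.86 for the mesenchymal list. With the start of any annotated transcript KRT8 and COL1A2 also counted, which made 2 of 7 and 8 of 8, beside 56.2% of all genes. By these lists the promoter peaks went against the bronchial epithelial label, although a peak is not a measure of expression.

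Of the 10 genes, 1 had a promoter peak in both replicates, which was MUC1, and the other 9 had none in either. A promoter peak is one that overlaps 1 kb to either side of the transcription start site (TSS) of the canonical transcript. Of all protein-coding genes 52.3% had one in both replicates, 53.2% in replicate 1 and 58.0% in replicate 2. The share differed with the CpG content of the promoter, by which all genes were put into 10 groups of equal size. In group 1, with the fewest CpG dinucleotides within 500 bp of the TSS, 1.8% had a promoter peak in both replicates, against 6.75% in group 2, 21.1% in group 3 and 74.5% in group 9. SCGB1A1, BPIFA1, SFTPB and SFTPD lay in group 1 with 4 to 8 CpG, SFTPC in group 2 with 17, and the mucins in group 3 with 25 to 39. SCGB3A1 had 98 and lay in group 9. Added over the 10 genes, these shares came to 1.73 promoters, beside the 1 found.

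**Figure D1:**
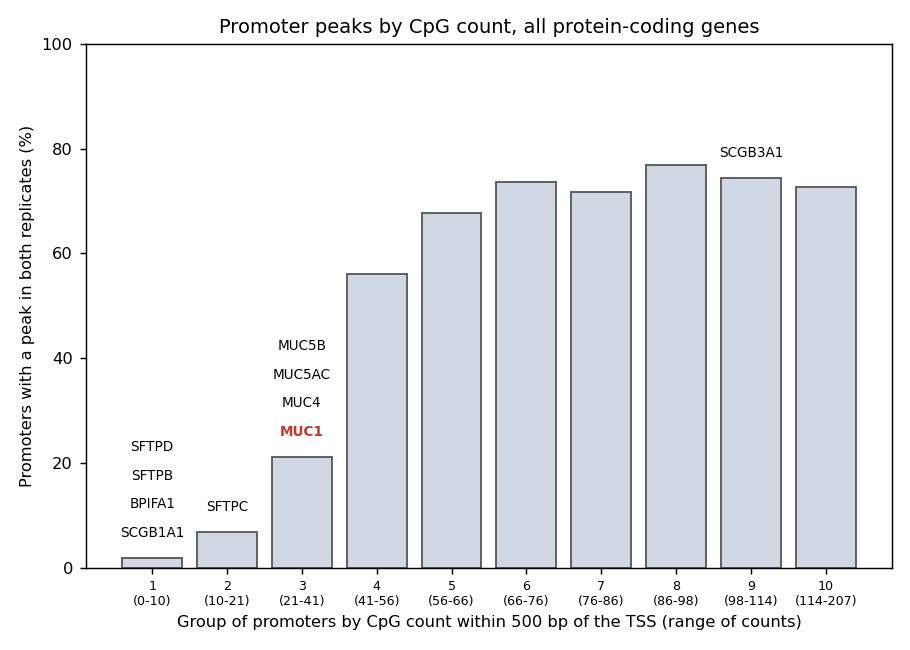
Bars show the share of promoters with a peak in both replicates (%) for all protein-coding genes, in 10 groups by the CpG count within 500 bp of the TSS, with the range of counts in parentheses. Gene names stand above the group they belong to, MUC1 in bold red as the gene with a peak, and 9 of the 10 lie in groups 1 to 3, where the share reaches 21.1% at most.

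The spans covered 1167 kb together and held 18 peaks of replicate 1 and 33 of replicate 2. These formed 33 regions, of which 18 were shared and 15 came from replicate 2 only. Over the whole lists 92.3% of replicate 1 peaks and 72.1% of replicate 2 peaks had a partner in the other list. A shared region was present in the span of 6 of the 10 genes, against 84.5% of all protein-coding genes. That share differed with the number of other TSSs in the span. It was 73.6% with none (SCGB1A1, SCGB3A1, SFTPD), 85.0% with 1 (MUC4, MUC5AC, MUC5B), 86.4% with 2 (BPIFA1), 87.2% with 3 (SFTPB), 92.6% with 6 (SFTPC) and 88.2% with 8 (MUC1). Added over the 10 genes these shares came to 8.3. In replicate 1 alone 4 genes had no peak in the span (MUC4, SCGB1A1, BPIFA1 and SFTPB), whereas 85.4% of all genes had one. In replicate 2 alone 2 had none (SCGB1A1 and BPIFA1), whereas 88.1% of all genes had one. The spans of MUC5AC and MUC5B overlap, and SFTPC alone gave 7 of the 18 shared regions. From the TSS to the nearest shared region the median was 42.2 kb for the 10 genes, 0.269 kb for all genes and 39.9 kb for the 9550 genes without a promoter peak in both replicates.

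**Figure D2:**
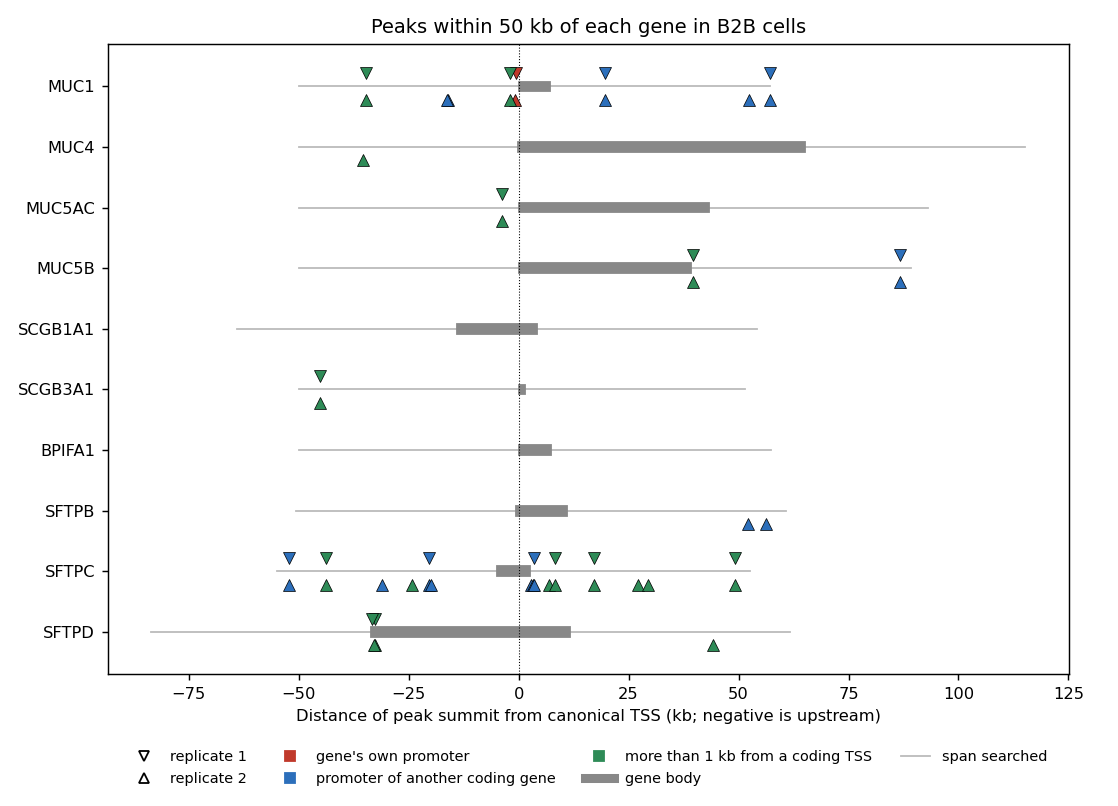
Triangles mark peak summits by their distance from the canonical TSS of each gene in kb, pointing down for replicate 1 and up for replicate 2. The gene body is a thick grey bar and the span a thin line. The bar follows the annotated bounds, which for several genes, among them MUC4, SCGB1A1, SFTPB, SFTPC and SFTPD, begin upstream of the canonical TSS. Red marks the own promoter of the gene, blue the promoter of another protein-coding gene and green a summit more than 1 kb from any canonical coding TSS. MUC1 is the only gene with a red mark, and SCGB1A1 and BPIFA1 have no mark.

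MUC1 (chr1:155185824-155192916, minus strand) had 5 shared regions in its span. The nearest one lay upstream of the gene and did not reach the TSS, with its edge 453 bp away and its summits at −0.710 kb in replicate 1 and −0.776 kb in replicate 2. Replicate 1 gave a fold enrichment of 7.28 and replicate 2 gave 8.30 (mean 7.79 ± 0.721, SD, n = 2), from 41 and 40 fragments. The −log10 q was 21.5 and 23.6. This was a peak of ordinary height, as 56.6% of all shared regions had a lower mean. With a promoter window of 500 bp the peak of replicate 2 fell outside and MUC1 was not counted. The sequence before the MUC1 start (RefSeq, GRCh38.p14, chr1:155192916-155193165, minus strand) and the 201 bases around the summit of the region (hg38, chr1:155193591-155193791, plus strand) are shown as the start of the gene and the open stretch beside it. Capitals mark CpG in the first and, in the second, a match to the CTCF motif.
MUC1 promoter: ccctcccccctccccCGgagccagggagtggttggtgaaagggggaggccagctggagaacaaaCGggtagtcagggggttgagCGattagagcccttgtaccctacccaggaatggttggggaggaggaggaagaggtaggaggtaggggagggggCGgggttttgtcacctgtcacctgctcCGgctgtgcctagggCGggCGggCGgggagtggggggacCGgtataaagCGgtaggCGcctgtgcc
MUC1 upstream summit: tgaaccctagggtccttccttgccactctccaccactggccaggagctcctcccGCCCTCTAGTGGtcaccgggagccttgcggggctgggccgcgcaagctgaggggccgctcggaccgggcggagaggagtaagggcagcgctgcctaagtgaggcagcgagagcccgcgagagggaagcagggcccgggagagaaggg
The 250 bases held 11 CpG, the median over 35097 promoters, and the letters TATAAA 24 bases before the start, and 10.7% of promoters held these letters on either strand of this window. The CTCF motif, searched on both strands, was present in 13.3% of the shared promoter regions in a window of this length.

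The other shared regions of the MUC1 span lay at neighbouring genes. A second upstream region had its summits at −1.91 and −1.97 kb, with fold enrichments of 4.85 and 7.23, and lay beside the starts of the non-coding genes THBS3-AS1 and MIR92B, the nearer of them 116 bp away. The promoter of KRTCAP2, a subunit of the oligosaccharyltransferase, had 4.68 and 5.89. The promoter of SLC50A1, a sugar transporter, had 7.97 and 8.10. The highest of the 5, at 8.84 in both replicates, lay 25 bp from the start of the non-coding gene GBAP1, at −34.6 kb from the MUC1 start. Replicate 2 alone added 1 peak at the DPM3 promoter and 2 at that of MTX1, at 4.53 to 4.98. No peak of either replicate lay inside MUC1.

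MUC4 (chr3:195746765-195811973, minus strand) had no peak of replicate 1 in its span. Replicate 2 had 1 peak there, at −35.5 kb from the TSS and within the non-coding gene LINC01983, with a fold enrichment of 5.21 from 22 fragments and a −log10 q of 8.85. The nearest peak of replicate 1 was 84.8 kb upstream, with a fold enrichment of 3.95. The nearest shared region was 88.8 kb from the TSS, farther than for most genes, as 12.7% of protein-coding genes had a greater distance.

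MUC5AC (chr11:1157953-1201138, plus strand) and MUC5B (chr11:1223066-1262172, plus strand) are neighbours, and no peak of either replicate lay inside either gene. A single peak-free interval of 108 kb in each replicate contained both. This is not long, as 69.4% of protein-coding genes in replicate 1 and 63.0% in replicate 2 had a longer one. Such an interval runs between the nearest peaks on either side of a gene, and peaks inside the gene were not considered. On the MUC5AC side the 108 kb interval was bounded by a region between genes, with its summit at −3.86 kb from the MUC5AC start in both replicates. The fold enrichments of 8.84 in replicate 1 and 7.93 in replicate 2 (mean 8.38 ± 0.641, SD, n = 2) came from 50 and 34 fragments, and 62.3% of shared regions had a lower mean. Within 100 bp of its summit the AP-1 motif TGACTCA was found 2 times. AP-1 is the dimer of Jun and Fos proteins.

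On the MUC5B side the interval ended just past the 3′ end of that gene, where the region began 497 bp beyond it in replicate 1 and 435 bp in replicate 2. This was a weak region, with 4.50 and 4.98 (mean 4.74 ± 0.339, SD, n = 2), and 9.44% of shared regions had a lower mean. It was also the nearest region to the MUC5B start, 39.5 kb away. The other shared region in the MUC5B span was the promoter of TOLLIP, an inhibitor of Toll-like receptor signalling, at 5.20 and 7.02.

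SCGB1A1 (chr11:62405103-62423195, plus strand) had no peak of either replicate in its span. The nearest peak was 90.3 kb downstream of the TSS in both replicates, at 6.41 and 7.48, on the side of AHNAK. The peak-free interval around the gene was 385 kb in both and ran from INCENP towards AHNAK. It held 7 protein-coding genes, which were SCGB1D1, SCGB2A1, SCGB1D2, SCGB2A2, SCGB1D4, ASRGL1 and SCGB1A1, so 6 of the 7 were secretoglobins. A longer interval was found for 21.6% of protein-coding genes in replicate 1 and 18.0% in replicate 2.

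SCGB3A1 (chr5:180590105-180591499, minus strand) stood apart by its sequence. Its promoter was CpG rich, of a kind that had a peak in 74.5% of cases, and it had none in either replicate. The 250 bases before its start (RefSeq, GRCh38.p14, chr5:180591500-180591749, minus strand) held 23 CpG, more than 74.2% of promoters, and those before the BPIFA1 start (chr20:33235746-33235995, plus strand) and the SFTPB start (chr2:85668200-85668449, minus strand) held 3 each. They are shown together, with CpG in capitals, because all 3 lacked a peak although only the first is CpG rich.
SCGB3A1 promoter: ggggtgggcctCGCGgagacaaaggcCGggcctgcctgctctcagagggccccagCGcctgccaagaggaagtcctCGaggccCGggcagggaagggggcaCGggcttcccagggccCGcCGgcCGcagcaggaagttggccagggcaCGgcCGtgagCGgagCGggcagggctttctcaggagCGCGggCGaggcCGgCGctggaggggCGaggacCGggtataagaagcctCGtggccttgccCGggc
BPIFA1 promoter: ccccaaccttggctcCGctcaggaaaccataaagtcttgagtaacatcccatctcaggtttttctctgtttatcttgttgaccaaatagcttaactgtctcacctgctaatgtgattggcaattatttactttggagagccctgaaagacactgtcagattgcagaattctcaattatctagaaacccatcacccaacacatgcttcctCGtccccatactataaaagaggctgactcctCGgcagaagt
SFTPB promoter: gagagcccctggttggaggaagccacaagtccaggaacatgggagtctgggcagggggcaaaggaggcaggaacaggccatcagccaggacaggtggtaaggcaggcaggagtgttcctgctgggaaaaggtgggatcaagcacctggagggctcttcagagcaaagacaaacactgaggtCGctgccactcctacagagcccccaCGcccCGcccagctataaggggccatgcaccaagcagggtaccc
In BPIFA1 the letters TATAAA stood 30 bases before the start, and CTTGAG, the reverse complement of the NKX2-1 motif CTCAAG, 215 bases before it. The NKX2-1 motif was held by 10.4% of promoters.

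The 1 shared region in the SCGB3A1 span lay in an intron of FLT4, the receptor for the lymphatic growth factor VEGFC. Its summits were at −45.1 and −45.2 kb from the SCGB3A1 start, with fold enrichments of 6.06 and 7.70 (mean 6.88 ± 1.16, SD, n = 2). Peaks of chromosome 5 beyond 80 Mb had a median of 42 and 37 fragments against 35 and 30 elsewhere, and the part of this in the value was not tested. The 201 bases around the summit (hg38, chr5:180636555-180636755, plus strand) are shown for the AP-1 motif, in capitals, 52 bases from the summit.
FLT4 intron summit: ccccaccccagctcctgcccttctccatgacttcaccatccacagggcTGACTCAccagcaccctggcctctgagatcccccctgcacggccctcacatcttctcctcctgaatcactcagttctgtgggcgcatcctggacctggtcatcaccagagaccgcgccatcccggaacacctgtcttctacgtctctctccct

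BPIFA1 (chr20:33235995-33243311, plus strand) was the farthest of the 10 genes from a shared region. No peak lay in its span, and the nearest was 208 kb downstream in replicate 1 and 207 kb in replicate 2. Their fold enrichments were 6.41 and 3.85, the latter from 16 fragments. A greater distance to a shared region was found for 5.05% of protein-coding genes. The peak-free interval around the gene was 624 kb long in replicate 1 and 623 kb in replicate 2. It contained 11 protein-coding genes, of which 8 belong to the BPI fold family (BPIFB2, BPIFB6, BPIFB3, BPIFB4, BPIFA2, BPIFA3, BPIFA1 and BPIFB1). The remaining genes were EFCAB8, SUN5 and CDK5RAP1. A longer interval was found for 11.1% of protein-coding genes in replicate 1 and 9.49% in replicate 2.

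SFTPB (chr2:85657314-85668741, minus strand) had no peak of replicate 1 in its span. The nearest one was 65.3 kb downstream, at the promoter of TMEM150A, with a fold enrichment of 8.66, and it was part of the nearest shared region. Replicate 2 had 2 peaks in the span, both at promoters of neighbours. One was at USP39, a splicing factor, with 7.70 from 33 fragments, and one at C2orf68 with 5.21 from 22 fragments.

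SFTPC (chr8:22156913-22164479, plus strand) had the most peaks of the 10 genes, with 7 in replicate 1 and 15 in replicate 2, and none of them was in the gene. More shared regions were found in the spans of 3.71% of protein-coding genes. All 7 shared regions lay at 4 neighbours. Upstream, the NUDT18 promoter had 7.10 and 10.6, an intron of HR, a nuclear corepressor, had 6.58 and 8.38, and the REEP4 promoter had 4.50 and 4.30. The nearest peak of replicate 2 began 71 bp past the 3′ end of SFTPC, 2.75 kb from its TSS, with a fold enrichment of 3.98 from 20 fragments, and replicate 1 had no peak there. Downstream, the nearest shared region, which held the nearest peak of replicate 1, was at the start of BMP1, the protease that trims procollagen, 3.40 kb from the SFTPC TSS, with 3.98 and 4.90.

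The other 3 regions were in introns of the canonical BMP1 transcript. The one 17.2 kb from the SFTPC start was the highest in any of the spans, reaching 11.8 in replicate 1 and 15.3 in replicate 2 (mean 13.5 ± 2.50, SD, n = 2) from 67 and 74 fragments. It held the AP-1 motif, and 90.2% of shared regions had a lower mean. The others had 5.89 and 5.21 at 8.26 kb, and 4.33 and 7.48 at 49.2 kb. The one at 8.26 kb lay 97 bp from the TSS of another annotated BMP1 transcript, and the one at 17.2 kb lay 737 bp from one.

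SFTPD (chr10:79937467-79982614, minus strand) was the only gene of the 10 with shared regions within its annotated bounds. They were 2, far upstream of the canonical TSS. The first had its summits at −32.6 and −32.7 kb with fold enrichments of 7.10 and 8.61 (mean 7.86 ± 1.06, SD, n = 2), and the second at −33.3 and −33.0 kb with 5.20 and 6.80. Their summits were 836 and 511 bp from the start of the most upstream annotated SFTPD transcript, so SFTPD counted as having a promoter peak when the TSS of any transcript was used, which 56.2% of all genes had. Both regions overlapped the processed pseudogene ZNRF2P3. The second region aligned to ZNRF2 on chromosome 7 (chr7:30285220-30285721) with 83.7% identity over 503 aligned bases, and whether fragments from there contributed was not tested. The first region had no such copy. The 201 bases around its summit (hg38, chr10:79981678-79981878, plus strand) are shown as the strongest open sequence inside any of the 10 genes, with a match to the CTCF motif in capitals, which stood at the summit.
SFTPD upstream summit: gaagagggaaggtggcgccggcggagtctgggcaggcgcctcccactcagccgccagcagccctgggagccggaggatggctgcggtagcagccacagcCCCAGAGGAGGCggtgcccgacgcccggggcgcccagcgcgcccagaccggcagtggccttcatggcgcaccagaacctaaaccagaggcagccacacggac
In the 250 bases before the canonical SFTPD start, TGAGTCA, the reverse complement of the AP-1 motif, was found 109 bases before the start. No peak lay there, and 4.2% of promoters held the motif.

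Across the 18 shared regions the fold enrichment was higher in replicate 2 in 14 and higher in replicate 1 in 4, with medians of 5.98 in replicate 1 and 7.59 in replicate 2. Over all peaks of the lists, shared or not, the medians were 6.06 in replicate 1 and 6.57 in replicate 2. These include peaks without a partner, so they are not a like comparison for the shared regions. The mean of both replicates ranged from 4.40 to 13.5, with a median of 6.50 beside 7.22 for all 25366 shared regions. The 15 regions of replicate 2 only had fold enrichments of 3.37 to 7.70 and a median of 4.76, and 9 of them were at promoters of neighbours.

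**Figure D3:**
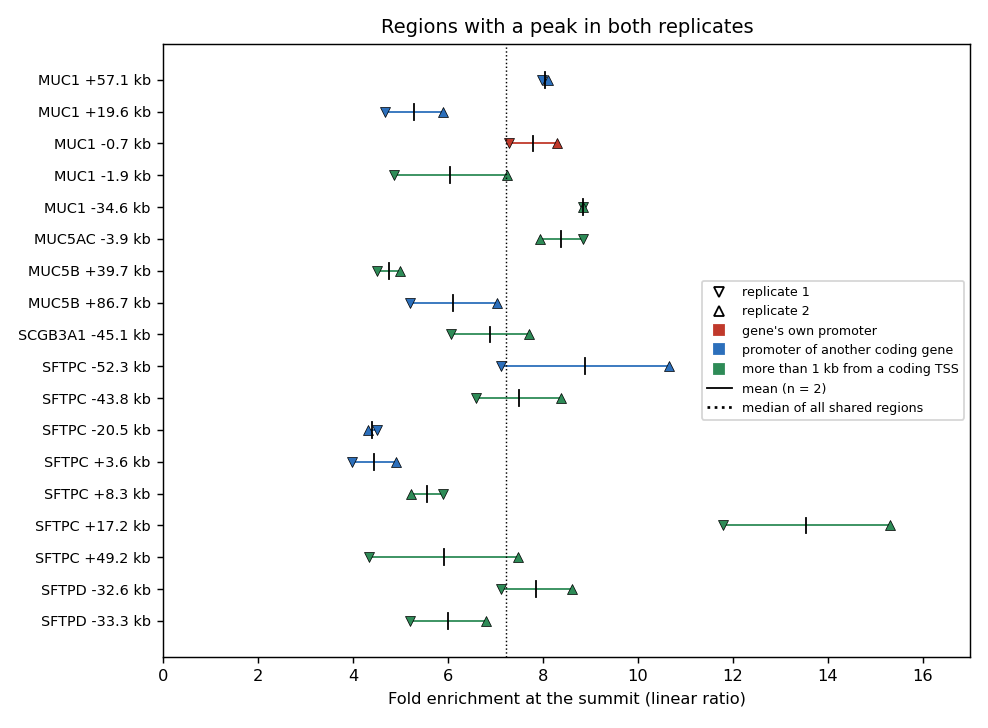
Fold enrichment at the summit (linear ratio) of the 18 shared regions, each named by gene and by the distance of the summit of replicate 1 from its TSS. Triangles pointing down are replicate 1 and those pointing up replicate 2, the short bar is their mean (n = 2), and the dotted line is the median of all shared regions, 7.22. The region 17.2 kb from the SFTPC start, in BMP1, is the highest at 11.8 and 15.3.

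Of the 18 regions, 7 were at a promoter, 1 of them that of MUC1, 7 were in introns and 4 between genes. Thus 11 of them, or 61.1%, were more than 1 kb from a canonical coding TSS, beside 59.4% of all shared regions. When the TSS of any annotated transcript was used the share in the spans was 33.3%, beside 52.5% of all shared regions. Of the 11 regions, 4 held the AP-1 motif TGACTCA on either strand no more than 100 bp from the summit (36.4%, 95% Wilson interval 15.2 to 64.6), beside 32.6% of all such regions. They were the regions upstream of MUC5AC, in FLT4, in HR and in BMP1. The HR and BMP1 regions lay 486 and 737 bp from an annotated TSS of a non-canonical transcript of the same gene. The NKX2-1 motif was found in 1 (a BMP1 intron), beside 11.5% of all such regions, and so was the TEAD motif ACATTCC (the same intron), beside 10.1%. The CTCF motif was found in 1 (SFTPD), beside 9.82%. None of the 11 held TATAAA (6.5% of all), the FOX motif TGTTTAC (3.05%), the ETS motif CCGGAAG (3.03%) or the RUNX motif TGTGGTT (7.91%).

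Of 53 other mucin, secretoglobin, BPI fold, surfactant and mucin maturation genes, 6 had a promoter peak in both replicates, or 11.3%, and the shares of their CpG groups added to 9.54. None of the 15 other mucins was among them, beside a sum of CpG shares of 1.97, and MUCL1 had a peak in replicate 1 only, at 5.02. With the TSS of any annotated transcript MUC12 had one in both replicates, which made 7 of the 53, beside 56.2% of all genes. Of 9 other secretoglobins, SCGB2B2 had a promoter peak in both replicates, at 8.14 and 9.97, beside a sum of CpG shares of 0.951. Its shared region did not reach the TSS and lay 0.139 kb from it. None of the 10 other BPI fold genes had one, beside a sum of CpG shares of 0.763.

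Of 7 other surfactant genes 3 had a promoter peak in both replicates, beside a sum of CpG shares of 3.03. These were ABCA3, the lipid transporter of lamellar bodies, at 7.28 and 9.29, CTSH, a protease that processes surfactant proteins, at 5.54 and 6.80, and LPCAT1, an enzyme of surfactant phospholipid synthesis, at 6.76 and 5.93. LAMP3 had a peak in replicate 2 only, at 5.66, and SFTPA1, SFTPA2 and NAPSA had none. Of 12 genes of mucin maturation and goblet cells, 2 had a promoter peak in both replicates, beside a sum of CpG shares of 2.83. Both serve O-glycan synthesis in most cells, C1GALT1 as the core 1 galactosyltransferase, at 15.5 and 14.3, and C1GALT1C1 as its chaperone, at 12.5 and 12.0.

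Of 9 regulators of such genes, 6 had a promoter peak in both replicates, beside a sum of CpG shares of 5.31. NKX2-1, the lung lineage factor, had 6.93 and 7.93. FOXA3 had 9.53 and 16.3, but its shared region lay 0.903 kb from the TSS, near the edge of the 1 kb window and outside one of 500 bp. FOXA1 had 3.90 and 3.17. CEBPA had 7.62 and 8.38, GATA6 3.29 and 7.25, and STAT6, the effector of interleukin signalling to mucin genes, 3.47 and 4.30. In replicate 1 the peaks of GATA6 and STAT6 were weak, with 18 and 19 fragments and a −log10 q of 3.60 and 4.19. With a −log10 q of at least 5 required, neither gene would be counted. SPDEF, the goblet cell factor, FOXA2 and CREB3L1 had no promoter peak. With the TSS of any annotated transcript CREB3L1 had one in both replicates, which made 7 of 9, beside 56.2% of all genes. The replicates differed by over 1.5 times at FOXA3 and GATA6.

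**Figure D4:**
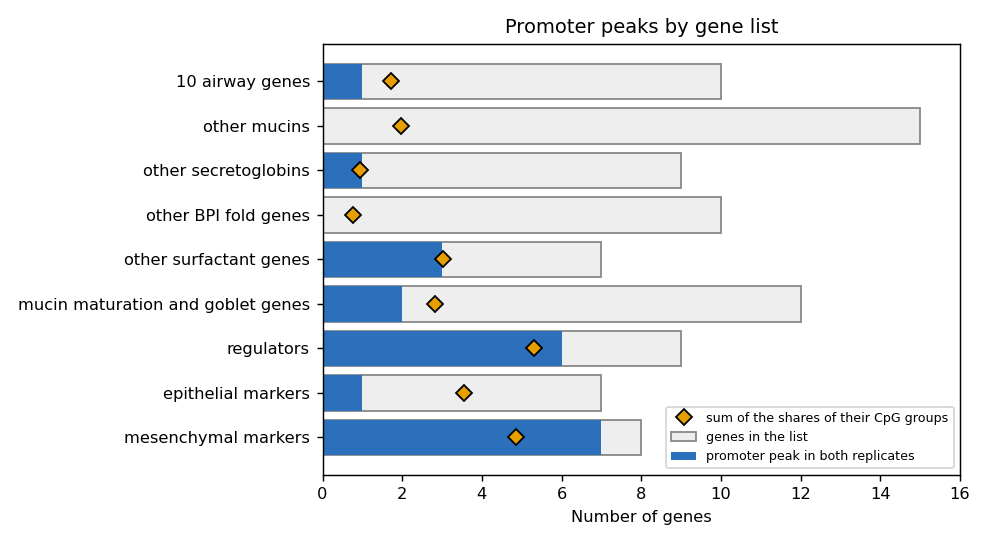
Number of genes in each list (grey bar), number with a promoter peak in both replicates (blue bar) and the sum of the shares of their CpG groups (orange diamond). For the 10 airway genes the values are 1 and 1.73, and for the regulators 6 and 5.31.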

How the data were processed

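Open chromatin was measured by ATAC-seq in B2B cells, with 1 peak list for each of the 2 replicates. Bowtie2 2.4.4 was used by the authors for mapping to hg38, custom code for removing duplicates, and MACS2 2.2.7.1 for calling peaks with all remaining reads kept, and SAMtools 1.13 is also named in the submitters' processing notes. Tn5 shifting, mitochondrial reads and the q limit are not given in the sources used here. The deposited lists give a fold enrichment as a linear ratio. They also give the authors' −log10 p and −log10 q. The deposited score was not used.

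Sequences other than the autosomes, X and Y were left out, with 139 peaks of replicate 1 and 157 of replicate 2. Overlap meant 1 bp or more. Fragments at a summit were worked out from its fold enrichment and −log10 p by the definitions of MACS2, and came out whole within 0.01 for 99.7% and 99.8% of peaks. That step, the overlaps and the motif search were tested on simulated data. Copies of the 33 span regions were sought with blastn (BLAST 2.17.0, E-value at most 1e-10, identity at least 80%), and 2 had one. Promoter sequences came from the RefSeq table, which held those of 6 of the 10 genes used here. Calculations were done in Python 3.11.15 (pandas 2.3.3, numpy 2.4.6, scipy 1.17.1) and figures were drawn with matplotlib 3.10.9.

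The genes and gene lists were chosen with earlier results of these data known. All 10 genes are named, with every peak in the gene or at its promoter, the nearest peak and the highest region, and each listed gene with a promoter peak, except 1 neighbouring gene that is not reported here. The study calls its replicates biological, without describing separate cultures, so SDs may be technical. Intervals cover counting error only. As alternatives, peaks under a −log10 q of 5 were dropped, the lists were cut to the same length by strength, overlap was set to 50%, each replicate was used alone, the promoter, span and motif windows were changed, and the TSS of any transcript was used.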

Additional observations from a re-analysis of the deposited data

How the results depend on the processing

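Of 52 alternative values for 6 results, 36 kept within the limit set for them and 16 moved. The number of the 10 genes with a promoter peak in both replicates was 1, and became 0 with a promoter window of 500 bp and 2 with the TSS of any annotated transcript. With either replicate left out it was 1. The number of genes with a shared region was 6, ranged from 6 to 8 with 1 replicate left out, and was 5 within 25 kb and 9 within 100 kb. No share of all genes is given at 25 kb and 100 kb, so these counts are not set against other genes. The 18 shared regions became 11 within 25 kb and 33 within 100 kb, and 18 to 33 with 1 replicate left out. The share away from promoters was 61.1%, became 72.2% with the window of 500 bp, 33.3% with any TSS and 48.5% within 100 kb, and was 51.5% to 61.1% with 1 replicate left out. The AP-1 share was 36.4% of 11 regions. It became 44.4% at 50% overlap, 30.8% and 40.0% with promoter windows of 500 bp and 3 kb, 28.6% within 25 kb and 25% within 100 kb, and 18.2% within 50 bp of the summit. With 1 replicate left out it was 36.4% to 41.2%. The count of related genes was 6, and 6 to 7 with 1 replicate left out. A stricter −log10 q of at least 5 moved none of the 6 results, among which the count of regulators was not included. No paired analysis was possible because there was only 1 group. With 2 libraries, SDs are rough, and a gene without a peak may be open below the 16 and 13 fragments of the weakest peaks.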
